A study of Homo sapiens with 18 samples.

Results

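NEAT1 and MALAT1 are 2 long noncoding RNAs made from neighbouring genes on chromosome 11 and kept in the nucleus. They are described here in human lung cells that had been exposed to wood smoke. Both were found by gene symbol through their Ensembl identifiers, ENSG00000245532 for NEAT1 and ENSG00000251562 for MALAT1, and are 2 of the 62649 gene IDs in the count files. Messenger RNA sequencing of 2 lines under 3 exposures gave 6 groups of 3 libraries, 18 libraries in all. The groups were BEAS-2B cells under complete smoke, under filtered smoke and in clean air, and A549 cells under the same 3 exposures. BEAS-2B is a virus-transformed line from human bronchial epithelium. A549 is a line from a human lung adenocarcinoma, used as a model of alveolar epithelium, and the submitters label both lines as wild type. Both lines sat on inserts at the air-liquid interface for 4 h in every group, clean air included, so all groups share that handling. Complete smoke is the whole aerosol, and filtered smoke is the aerosol after a filter. The question was how each kind of smoke changed gene expression in either line.

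NEAT1 is the scaffold of paraspeckles, bodies in the nucleus that form when proteins such as SFPQ and NONO assemble along its long form. The gene gives a short form that ends at an ordinary polyadenylation site and a long form that reads through it, and paraspeckles are known to grow or multiply under several kinds of cell stress. MALAT1 is one of the most abundant nuclear RNAs of mammalian cells and gathers at nuclear speckles, which store splicing factors. The 3′ end of MALAT1 and that of the long NEAT1 form are not made by polyadenylation. RNase P cuts them just before a tRNA-like RNA, and the free end folds into a triple helix of U-rich stretches and an A-rich tail.

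By GENCODE v29 on GRCh38, NEAT1 lies on the plus strand of chromosome 11, chr11:65422774-65445540, over 22.767 kb. MALAT1 lies 52.147 kb further on the same strand, chr11:65497688-65506516, over 8.829 kb. Both are annotated as lincRNA with no coding sequence. The ends below are printed because they bear on how a kit that selects poly(A) tails can catch these RNAs. Each is the last 100 bases before the RNase P cut on the plus strand, at chr11:65506017-65506116 for MALAT1 and at chr11:65445441-65445540 for the long NEAT1 form, and capitals mark runs of at least 8 bases that both ends share.

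MALAT1: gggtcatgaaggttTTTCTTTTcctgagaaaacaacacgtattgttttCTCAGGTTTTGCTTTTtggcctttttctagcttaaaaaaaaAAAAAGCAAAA
NEAT1 long form: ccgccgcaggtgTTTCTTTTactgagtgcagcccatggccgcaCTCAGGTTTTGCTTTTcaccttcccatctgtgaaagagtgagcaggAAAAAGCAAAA

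The shared letters made 3 blocks of 35 bases in all, with U-rich runs (written as T) first and the A-rich tail last. The tails differed in how much A they held. The longest run of A was 13 bases in MALAT1 and 5 bases in the long NEAT1 form, and A made up 85.0% of the last 20 bases in MALAT1 and 55.0% in NEAT1. The short NEAT1 form ends elsewhere, at chr11:65426454-65426513, with the polyadenylation signal AATAAA (in capitals) starting 11 bases before its end. The tRNA-like RNA cut off the end of MALAT1, mascRNA, lies directly downstream at chr11:65506117-65506173 and carries no A-rich tail.

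NEAT1 short form: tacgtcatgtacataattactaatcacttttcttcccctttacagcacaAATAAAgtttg
mascRNA: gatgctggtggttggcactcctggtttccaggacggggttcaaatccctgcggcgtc

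The mascRNA gene had 0 counts in all 18 libraries, as had 5 other small RNA genes annotated inside NEAT1 or MALAT1 on the same strand. A read there overlaps the long gene as well and would be set aside as ambiguous, so these zeros say nothing about the small RNAs. The counts are also per gene, so the short and long forms of NEAT1 were not separated.

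Total gene counts per library were 28532235 to 55032499 in BEAS-2B cells and 14438397 to 21432089 in A549 cells. NEAT1 had between 1551 and 16353 counts per library and MALAT1 between 553 and 48748, so that 95% Wilson intervals for counting error reached at most 8.69% of a value above it and 7.99% below it. The lines matched their labels on most markers: KRT5 was at 69.6 to 140 CPM (counts per 1000000 gene counts) in BEAS-2B cells, against at most 0.241 CPM in A549 cells, and AKR1B10 was at most at 0.405 CPM in BEAS-2B cells, against 1161 to 2693 CPM in A549 cells. EPCAM, chosen as an A549 marker, was not higher there, at 5.4 to 9.3 CPM in A549 and 8.2 to 17.5 CPM in BEAS-2B cells. The surfactant genes SFTPA1, SFTPB and SFTPC, which define alveolar type 2 cells, were at or near 0 in A549 cells. ABCA3, chosen for the same cell type, was at 40.8 to 55.3 CPM in A549 and 4.26 to 9.01 CPM in BEAS-2B cells. Of the genes chosen as markers of other cells, PTPRC, PECAM1, SCGB1A1 and FOXJ1 were at most at 3.16 CPM in either line. COL1A1 was at 129 to 1086 CPM in BEAS-2B and 8.3 to 50.5 CPM in A549 cells. MUC5B was at most at 0.526 CPM in BEAS-2B cells and at 44.8 to 194 CPM in A549 cells. In BEAS-2B cells complete smoke library 3 stood apart: 31.7% of its reads mapped to several places, against 12.9% and 10.2% in complete smoke libraries 1 and 2. Clean air library 1 was treated as doubtful from an earlier analysis, whose reason is not given here. It had 9.08% of such reads, against 7.69% and 8.73% in clean air libraries 2 and 3. Filtered smoke library 3 had 19.2% of such reads, against 10.8% and 11.7% in filtered smoke libraries 1 and 2. Counts of called genes in BEAS-2B cells are given below with all libraries and without complete smoke library 3 and clean air library 1.

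In A549 cells MALAT1 had lower mean levels under both kinds of smoke than in clean air, and the difference passed the test under filtered smoke. MALAT1 was at 167, 152 and 359 CPM in complete smoke libraries 1, 2 and 3, at 119, 129 and 314 CPM in filtered smoke libraries, and at 304, 553 and 545 CPM in clean air libraries. Both smoke groups had 2 low libraries and a higher library 3, which overlapped the lowest clean air library. The means were 226 ± 115 CPM under complete smoke, 187 ± 110 CPM under filtered smoke and 467 ± 141 CPM in clean air (SD, n = 3 each).

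Under filtered smoke the log2 fold change of MALAT1 in A549 cells against clean air was −1.18 ± 0.41 (SE; adjusted p = 0.0378 by edgeR's quasi-likelihood test), a level 2.26-fold lower. In this comparison 46.7% of all tested genes passed and 23.5% of all tested genes fell, so MALAT1 was 1 among many. The call was lost in 6 of 14 alternatives, with adjusted p between 6.91e-08 and 0.129 over all of them. It did not pass without clean air library 2 (adjusted p = 0.105), clean air library 3 (0.109), filtered smoke library 1 (0.122) or filtered smoke library 2 (0.129). Under complete smoke the log2 fold change of MALAT1 was −0.93 ± 0.41 with an adjusted p of 0.0990 by edgeR, which did not pass, while 32.5% of all tested genes did. With the sample number as a block, which pairs the A549 libraries, it was −1.01 ± 0.19 (adjusted p = 0.00116 by edgeR), and without complete smoke library 3 it was −1.40 (adjusted p = 0.0174), over a range of 4.94e-05 to 0.276 among its alternatives. In bulk libraries fewer cells with the RNA and less RNA per cell cannot be told apart.

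NEAT1, the paraspeckle scaffold, gave smaller differences in the same cells. NEAT1 was at 448, 401 and 764 CPM in A549 complete smoke libraries 1, 2 and 3, at 351, 360 and 542 CPM in filtered smoke libraries, and at 484, 811 and 817 CPM in clean air libraries. The groups overlapped in both comparisons, since library 3 was the highest of each smoke group and library 1 the lowest in clean air. Means were 538 ± 197 CPM under complete smoke, 418 ± 108 CPM under filtered smoke and 704 ± 190 CPM in clean air (SD, n = 3 each).

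The log2 fold change of NEAT1 in A549 cells was −0.27 ± 0.27 under complete smoke (adjusted p = 0.448 by edgeR) and −0.60 ± 0.27 under filtered smoke (adjusted p = 0.0906 by edgeR). Neither passed. The sample number as a block left complete smoke unpassed and made filtered smoke pass, at −0.60 ± 0.16 (adjusted p = 0.00549 by edgeR). Without filtered smoke library 3 the filtered smoke value was −0.78 (adjusted p = 0.0302), and over all alternatives its adjusted p ran from 0.00549 to 0.243. For all genes under complete smoke the block moved the count that rose to 4159 and that fell to 4162, against 2371 and 2580 without it.

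**Figure D1:**
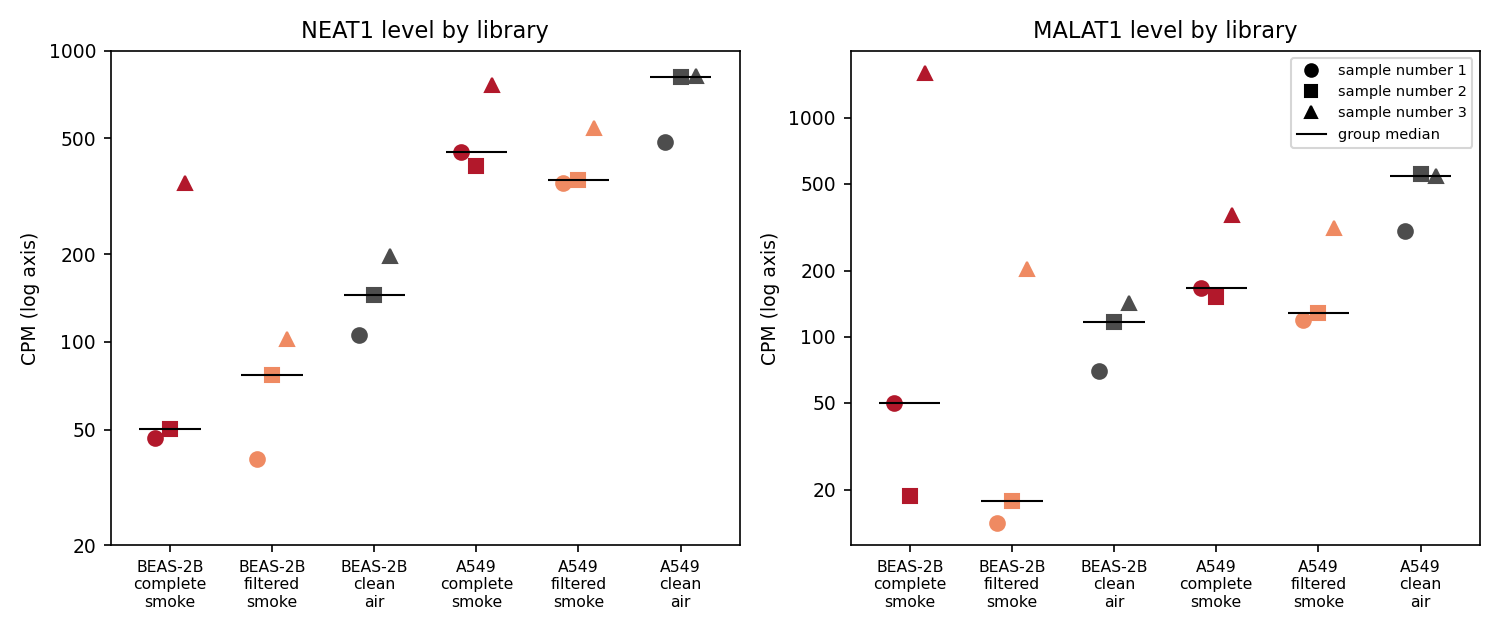
Level of NEAT1 (left) and MALAT1 (right) in each of the 18 libraries, as CPM on a log axis, by line and exposure; the marker shape gives the sample number and the bar the group median. In every group sample number 3 has the highest NEAT1 level, and BEAS-2B complete smoke library 3, at 1601 CPM of MALAT1, lies far above the other libraries of its group.

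BEAS-2B cells gave no call for either RNA, and their values hung on the third sample. MALAT1 was at 50.0, 18.8 and 1601 CPM in BEAS-2B complete smoke libraries 1, 2 and 3, at 14.1, 17.8 and 205 CPM in filtered smoke libraries, and at 70.1, 117 and 142 CPM in clean air libraries. On the CPM scale libraries 1 and 2 of both smoke groups were thus below all clean air libraries, and library 3 of both was above all of them. After TMM scaling, which sets libraries to a common level of most genes and on which the fold changes rest, complete smoke library 1 was at 69.7 TMM-scaled CPM, above clean air library 1 at 61.3. The highest library held 85.2 times the lowest under complete smoke and 14.5 times under filtered smoke, against 2.03 times in clean air.

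The log2 fold change of MALAT1 in BEAS-2B cells was 2.86 ± 1.47 under complete smoke (adjusted p = 0.138 by edgeR) and 0.12 ± 1.37 under filtered smoke (adjusted p = 0.946 by edgeR), while 41% and 48.6% of all tested genes passed in these comparisons. The direction turned without library 3. Complete smoke gave −0.77 (adjusted p = 0.521) without complete smoke library 3, and filtered smoke gave −1.98 (adjusted p = 0.282) without filtered smoke library 3. With sample numbers 1 and 2 alone, a setting chosen after seeing the data, MALAT1 was at −0.63 ± 0.47 under complete smoke (adjusted p = 0.307) and at −1.85 ± 0.48 under filtered smoke (adjusted p = 0.0286 by edgeR), and the last value passed. Over all alternatives the adjusted p of the filtered smoke comparison ran from 0.0286 to 1.

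NEAT1 in BEAS-2B cells was at 46.9, 50.2 and 352 CPM in complete smoke libraries 1, 2 and 3, at 39.7, 76.9 and 102 CPM in filtered smoke libraries, and at 106, 144 and 197 CPM in clean air libraries. On this scale all filtered smoke libraries were below all clean air libraries, and complete smoke had 2 libraries below clean air and 1 above. Scaling by TMM closed the gap: the filtered smoke libraries were then at 52.8 to 107 TMM-scaled CPM and the clean air libraries at 92.7 to 130.

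The log2 fold change of NEAT1 in BEAS-2B cells was 0.57 ± 0.62 under complete smoke (adjusted p = 0.468 by edgeR) and −0.37 ± 0.62 under filtered smoke (adjusted p = 0.632 by edgeR). Without complete smoke library 3 the complete smoke value turned to −0.79 (adjusted p = 0.0551), and without that library and clean air library 1 it was −0.85 and passed (adjusted p = 0.0442 by edgeR), with 0.0442 to 0.997 as the range over all alternatives. Without TMM, on library size alone, filtered smoke gave −1.03 ± 0.74 (adjusted p = 0.250). That setting moved the median of all genes in the filtered smoke comparison to −0.74.

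**Figure D2:**
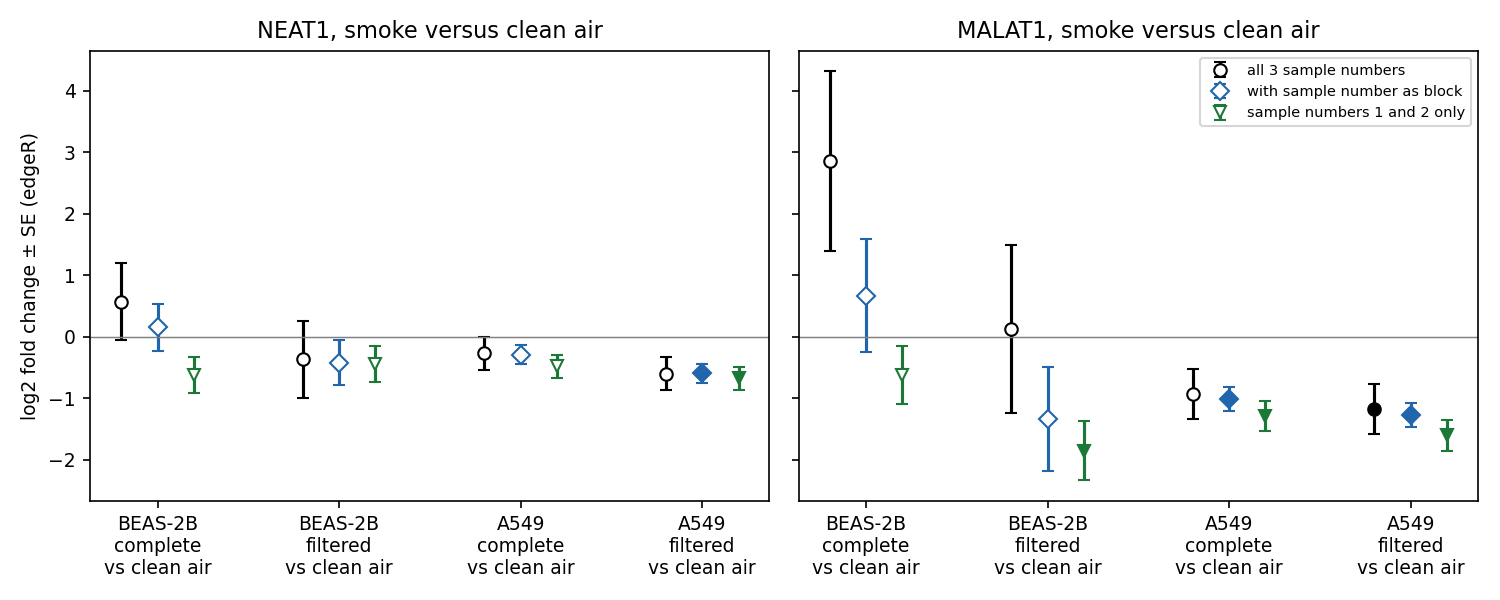
Log2 fold change (edgeR, bars are 1 SE) of NEAT1 (left) and MALAT1 (right) for complete and filtered smoke against clean air in BEAS-2B and A549 cells, with all libraries (circles), with the sample number as a block (diamonds) and with sample numbers 1 and 2 only (triangles); filled markers have an adjusted p under 0.05. The A549 values lie below 0 under every setting drawn, and MALAT1 in BEAS-2B cells under complete smoke is 2.86 with all libraries and −0.63 with sample numbers 1 and 2.

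Complete and filtered smoke were not told apart by either RNA. In A549 cells complete over filtered smoke gave a log2 fold change of 0.33 ± 0.27 for NEAT1 (95% interval −0.20 to 0.86) and 0.25 ± 0.41 for MALAT1 (−0.55 to 1.04), and in BEAS-2B cells 0.94 ± 0.63 for NEAT1 (−0.28 to 2.17) and 2.73 ± 1.46 for MALAT1 (−0.12 to 5.59). No gene passed in either line by edgeR, which is 0% of those tested. At an unadjusted p under 0.05 edgeR gave 236 genes in A549 cells and 222 in BEAS-2B cells, and DESeq2 gave 3 genes in A549 cells and 0 in BEAS-2B cells after adjustment. Without complete smoke library 3 the BEAS-2B values turned to −0.40 for NEAT1 and −0.88 for MALAT1.

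The libraries of the lines differed in the level of NEAT1 in clean air. BEAS-2B cells were seeded at 500000 and A549 cells at 400000, and the BEAS-2B libraries were deeper. Line, seeding, depth and any difference in library preparation cannot be told apart here. NEAT1 averaged 149 ± 45.9 CPM in BEAS-2B cells and 704 ± 190 CPM in A549 cells (SD, n = 3 each), a log2 fold change of −2.13 ± 0.51 (adjusted p = 0.00193 by edgeR), or 4.37-fold lower in BEAS-2B cells. The groups did not overlap, and the difference passed in all 15 alternatives. In that comparison 55.4% of all tested genes passed, 27.3% higher and 28% lower in BEAS-2B cells. MALAT1 averaged 110 ± 36.6 CPM in BEAS-2B cells and 467 ± 141 CPM in A549 cells, without overlap, yet its log2 fold change of −1.98 ± 1.09 did not pass (adjusted p = 0.134 by edgeR), in a joint fit whose spread for MALAT1 includes the BEAS-2B smoke libraries. With sample numbers 1 and 2 only it was −1.99 ± 0.43 (adjusted p = 0.00225 by edgeR), in a range of 1.29e-12 to 0.257 over all alternatives.

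Across the 6 groups NEAT1 had mean levels of 150, 72.9 and 149 CPM in BEAS-2B complete smoke, filtered smoke and clean air, and of 538, 418 and 704 CPM in the same A549 groups. BEAS-2B filtered smoke was the lowest and A549 clean air the highest. Each group overlapped its neighbour in this order except BEAS-2B filtered smoke and BEAS-2B clean air. BEAS-2B complete smoke reached A549 filtered smoke only through library 3, at 351.8 CPM against a lowest A549 value of 351.2 CPM. MALAT1 had mean levels of 556, 79.1 and 110 CPM in the BEAS-2B groups and of 226, 187 and 467 CPM in the A549 groups, and there every group overlapped its neighbour in the order, with BEAS-2B complete smoke highest only through 1 library.

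The difference between lines in the response to smoke passed for neither RNA. The response of MALAT1 to complete smoke against clean air was 3.70 ± 1.54 higher in BEAS-2B than in A549 cells on the log2 scale (adjusted p = 0.229 by edgeR), and 0.18 without BEAS-2B complete smoke library 3. To filtered smoke the difference was 1.29 ± 1.50 for MALAT1 (adjusted p = 0.717 by edgeR). For NEAT1 the differences were 0.79 ± 0.69 under complete smoke and 0.23 ± 0.69 under filtered smoke. Of all tested genes 1.74% passed for complete smoke and 0.825% for filtered smoke.

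Between genes, levels can be set side by side only per length, and here the order depended on the length taken for NEAT1. In A549 clean air MALAT1 was at 52.9 ± 16.0 CPM per kb, and NEAT1 at 30.9 ± 8.36 CPM per kb over the full 22.767 kb but at 188 ± 50.9 CPM per kb over the 3.74 kb of the short form (SD, n = 3 each). Since the forms were not separated, which RNA was the more abundant was not settled.

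The ratio of NEAT1 to MALAT1 counts within a library needs no scaling between libraries. In A549 cells the log2 ratio was 1.42, 1.40 and 1.09 in complete smoke libraries 1, 2 and 3, 1.56, 1.48 and 0.79 in filtered smoke libraries, and 0.67, 0.55 and 0.58 in clean air libraries. Every A549 smoke library was thus above every clean air library, with MALAT1 the lower relative to NEAT1 under smoke. The mean log2 ratio was 0.70 higher under complete smoke and 0.67 higher under filtered smoke than in clean air. The 2-sided exact permutation p was 0.1 for each, which is the smallest that 3 against 3 libraries can give, and 0.3 after adjustment over the 6 comparisons of this kind. Pairing by sample number gave a higher ratio under smoke in 3 of 3 pairs for each exposure (exact p = 0.25, the smallest for 3 pairs).

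In BEAS-2B cells the log2 ratio was −0.09, 1.42 and −2.19 in complete smoke libraries 1, 2 and 3, 1.49, 2.11 and −1.01 in filtered smoke libraries, and 0.60, 0.31 and 0.47 in clean air libraries. The smoke libraries spread to both sides of a narrow clean air group, with library 3 lowest in each. The mean differed from clean air by −0.74 under complete smoke and by 0.41 under filtered smoke, with an exact permutation p of 0.7 for each.

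**Figure D3:**
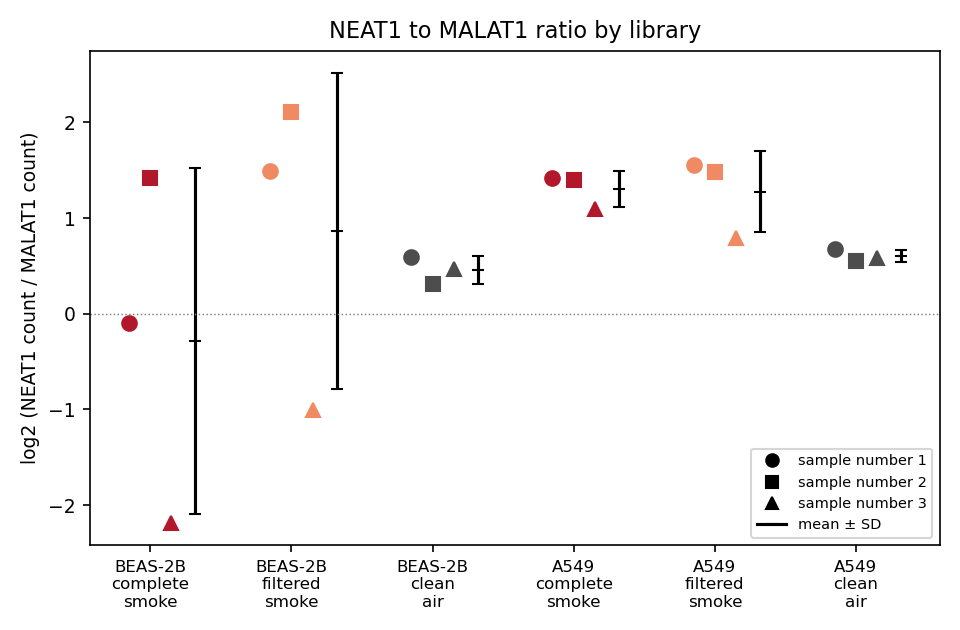
Log2 ratio of NEAT1 to MALAT1 counts within each library, by line and exposure, with the mean and SD of each group beside its 3 libraries. The A549 smoke libraries, at 0.79 to 1.56, lie above the A549 clean air libraries, at 0.55 to 0.67, and the BEAS-2B smoke libraries spread from −2.19 to 2.11.

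The third BEAS-2B smoke libraries were set against the mean of libraries 1 and 2 of their group, as a description. MALAT1 was 46.4-fold higher in complete smoke library 3 and 12.8-fold higher in filtered smoke library 3. Among 9744 genes with a mean of at least 5 CPM in BEAS-2B cells, 0 genes had a larger value than MALAT1 in either group. NEAT1 was 7.23-fold higher in complete smoke library 3, with 20 genes above it, and 1.75-fold higher in filtered smoke library 3, with 785 genes above it.

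Among other long noncoding RNAs, KCNQ1OT1, the antisense RNA of an imprinted locus, came next to MALAT1 with 32.5-fold in complete smoke and 7.63-fold in filtered smoke. FTX, from the X inactivation centre, was 9.93-fold and 2.74-fold higher. Of 10 such RNAs at this level, 8 were above the median of all genes in each of these libraries, and 7 were in clean air library 3. The median log2 difference of the 10 was 1.29 in complete smoke, 0.49 in filtered smoke and 0.51 in clean air. CYTOR and DANCR, also long noncoding, were below that median in both. In A549 cells MALAT1 was 2.25-fold higher in complete smoke library 3 and 2.53-fold higher in filtered smoke library 3, with 169 and 235 of 10613 genes above it.

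The share of uniquely mapped reads that met no annotated exon on the counted strand moved along with both RNAs in most libraries. Such reads can lie between genes, in introns or opposite to a gene, and these were not separated. In A549 cells it was 3.73, 3.27 and 6.41% in complete smoke libraries 1, 2 and 3, 2.56, 2.86 and 5.09% in filtered smoke libraries, and 6.49, 7.45 and 7.56% in clean air libraries. In BEAS-2B cells it was 1.40, 1.22 and 12.6% in complete smoke libraries, 1.09, 1.26 and 2.90% in filtered smoke libraries, and 3.51, 5.37 and 6.41% in clean air libraries. Every A549 smoke library was below every A549 clean air library, and BEAS-2B complete smoke library 3, with the most MALAT1, was the highest of all. BEAS-2B filtered smoke library 3 had more MALAT1 than the BEAS-2B clean air libraries at a smaller share. Both smoke libraries with raised MALAT1 in BEAS-2B cells also had more reads that mapped to several places than the others of their group, 31.7% and 19.2%. The part of either kind of read in the levels of NEAT1 and MALAT1 was not tested.

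**Figure D4:**
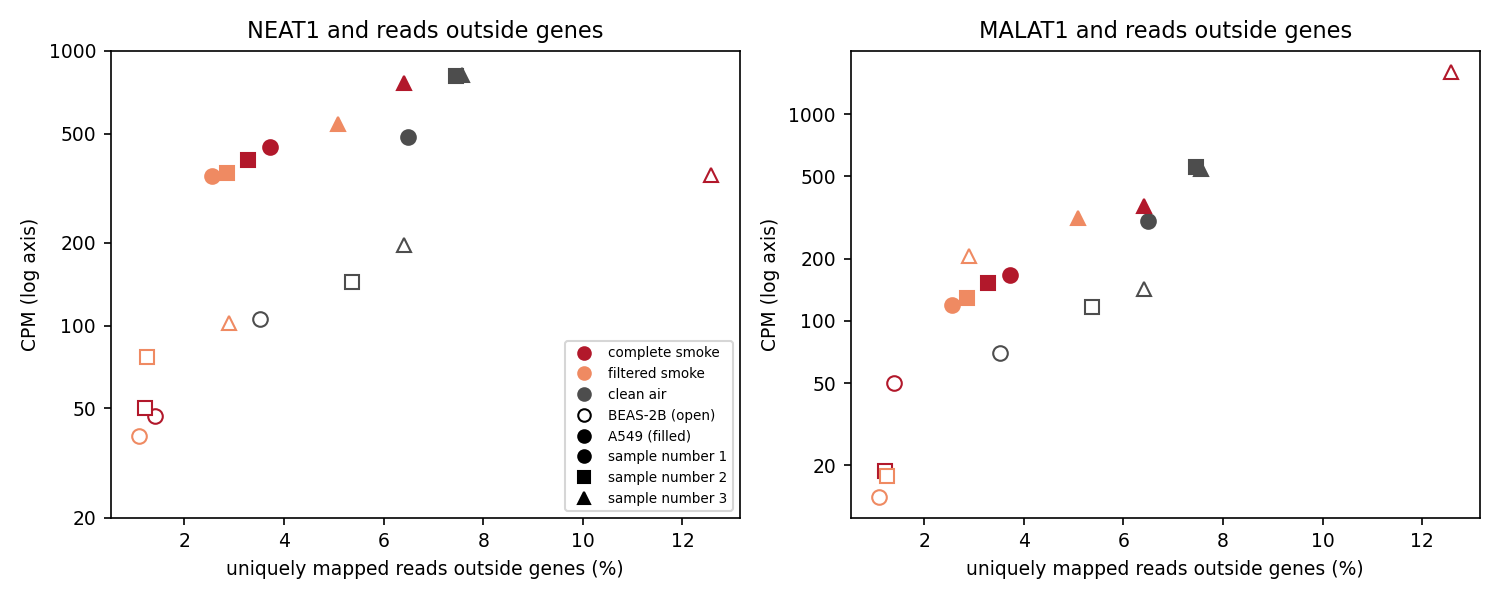
Level of NEAT1 (left) and MALAT1 (right) as CPM on a log axis, 1 point per library. The horizontal axis is the percentage of uniquely mapped reads that met no annotated exon on the counted strand. Its label says outside genes, but such reads can also lie in introns or opposite to a gene. Colour gives the exposure, open points are BEAS-2B, filled points are A549 and shape gives the sample number. BEAS-2B complete smoke library 3 has both the largest share, 12.6%, and the highest levels of its line, while BEAS-2B filtered smoke library 3, at 2.90%, has more MALAT1 than the BEAS-2B clean air libraries at 3.51 to 6.41%.

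Strand mattered to MALAT1. TALAM1, the antisense RNA made from the MALAT1 locus, had 5 to 37 counts per A549 library and 0 to 21 per BEAS-2B library, and did not pass in A549 cells. In BEAS-2B cells it was too low to be tested. Counting without strand sets aside reads that overlap a gene on each strand. In such counts MALAT1 kept 0.929 to 3.38% of its stranded counts, and NEAT1 kept 100.1 to 100.4%. The log2 fold change of MALAT1 in A549 filtered smoke was −1.08 ± 0.44 in those counts (adjusted p = 0.0633 by edgeR), where it no longer passed.

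NEAT1 and MALAT1 varied together across libraries. Their log2 levels had a Pearson correlation of 0.934 over the 9 A549 libraries and of 0.909 over the 9 BEAS-2B libraries. The same libraries also shared differences in depth and in reads that met no annotated exon on the counted strand. The BEAS-2B correlation was 0.708 without complete smoke library 3, and 0.559 over the 6 libraries with sample numbers 1 and 2. Of 9167 genes compared in both lines, ranked by the lower of the 2 correlations, MALAT1 was the most like NEAT1. ITPRIPL2 came next (0.863 in A549 and 0.868 in BEAS-2B cells), then ELK4, an ETS transcription factor (0.898 and 0.861), TMEM161B-DT, a divergent transcript (0.944 and 0.861), and SNX14, a sorting nexin (0.870 and 0.858). For MALAT1 the nearest was LINC00472, another long noncoding RNA (0.926 and 0.957). NEAT1 was second, and JPX, a long noncoding RNA of the X inactivation centre (0.961 and 0.887), RYK, a Wnt receptor (0.860 and 0.893), and TFPI, an inhibitor of coagulation (0.962 and 0.859), followed. Without BEAS-2B complete smoke library 3 the BEAS-2B correlations of these genes were 0.714 to 0.824 with NEAT1 and 0.525 to 0.876 with MALAT1, so the order rests in part on that library.

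Genes that act with NEAT1 and MALAT1 are given below by list, against a background in which many genes passed. Of all tested genes, 15.6% rose and 16.9% fell under complete smoke and 23.1% rose and 23.5% fell under filtered smoke in A549 cells. In BEAS-2B cells 21.5% rose and 19.5% fell under complete smoke and 23.6% rose and 24.9% fell under filtered smoke. Without BEAS-2B complete smoke library 3 and clean air library 1 these shares were 31.8% and 31.7% under complete smoke and 32.1% and 31.3% under filtered smoke. With sample numbers 1 and 2 only they were 16.5% and 17.3%, and 15.2% and 17.2%. On library size alone, where the median of all genes moved to −0.75 and −0.74, they were 9.36% and 41.8%, and 10.2% and 45.3%. The list counts and medians below are from TMM-scaled fits, and those on library size alone are not given. Adjusted p values of these genes are from edgeR.

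Among the proteins that build paraspeckles on NEAT1 few passed. Of 12 tested, none rose and 1 fell under complete smoke in A549 cells, and none passed under filtered smoke by edgeR. With the sample number as a block 1 rose and 1 fell in A549 cells under each exposure. In BEAS-2B cells 1 rose and 1 fell under each exposure, without complete smoke library 3 and clean air library 1 it was 1 and 2 under complete smoke and 1 and 0 under filtered smoke, and with sample numbers 1 and 2 only none passed under complete smoke and 1 rose under filtered smoke. The median log2 fold change of the 12 was −0.09 and −0.12 under complete and filtered smoke in A549 cells, where the median of all genes was 0.02 and 0.01, and −0.21 and −0.04 in BEAS-2B cells, where it was −0.06 and −0.07. With TMM scaling the 3 core proteins SFPQ, NONO and PSPC1 passed in none of the 4 comparisons. Before scaling, all 3 were lower in every BEAS-2B smoke library than in every BEAS-2B clean air library. SFPQ was at 142 to 283 CPM under smoke and 319 to 525 CPM in clean air. NONO was at 284 to 451 and 632 to 723 CPM, and PSPC1 at 22.7 to 48.9 and 50.3 to 69.2 CPM. On library size alone the median of all genes also fell in that line, as given above. Under complete smoke SFPQ had log2 fold changes of −0.03 ± 0.12 in A549 and −0.46 ± 0.22 in BEAS-2B cells, NONO of 0.10 ± 0.13 and −0.26 ± 0.20, and PSPC1 of −0.25 ± 0.20 and −0.26 ± 0.19. SMARCA4, a chromatin remodelling ATPase, fell in A549 complete smoke (−0.59 ± 0.16, adjusted p = 0.0227 by edgeR). In BEAS-2B cells the RNA-binding protein DAZAP1 had log2 fold changes of 0.62 ± 0.20 under complete and 0.83 ± 0.20 under filtered smoke, which passed with TMM scaling but not on library size alone. Before scaling, DAZAP1 averaged 111 CPM under complete smoke and 129 CPM under filtered smoke, against 117 CPM in clean air, and library size alone gave −0.079 and 0.14 (adjusted p = 0.645 and 0.404 by edgeR). TAF15, another RNA-binding protein, fell (−0.88 ± 0.24 and −0.70 ± 0.24), but under filtered smoke it did not pass without complete smoke library 3 and clean air library 1 (−0.67, adjusted p = 0.0600 by edgeR), nor under either exposure with sample numbers 1 and 2 only (adjusted p = 0.0889 and 0.112).

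Cleavage and polyadenylation factors include CPSF6, CPSF7 and NUDT21, subunits of a complex known to favour the polyadenylation site of the short NEAT1 form. Of 15 tested, 2 rose and 4 fell in A549 cells under each exposure, and in BEAS-2B cells none rose while 3 fell under complete and 6 under filtered smoke. The block gave 3 that rose and 5 that fell under complete smoke and 4 and 4 under filtered smoke in A549 cells. In BEAS-2B cells 2 rose and 5 fell under complete and 4 rose and 6 fell under filtered smoke without complete smoke library 3 and clean air library 1, and with sample numbers 1 and 2 only 3 fell under each exposure. NUDT21 fell in BEAS-2B cells, with log2 fold changes of −0.83 ± 0.17 under complete smoke (adjusted p = 0.00713 by edgeR) and −1.28 ± 0.17 under filtered smoke (0.00242). CPSF7 also fell there (−1.40 ± 0.19 and −1.16 ± 0.19). In A549 cells SYMPK, a scaffold of the machinery, rose (0.64 ± 0.19 and 0.72 ± 0.19) and WDR33, which reads the AATAAA signal, fell (−0.76 ± 0.14 and −0.72 ± 0.14). The median of the list was 0.03 and −0.24 in A549 cells and −0.40 and −0.44 in BEAS-2B cells under complete and filtered smoke.

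Among RNase P subunits, RNase Z and the triple-helix binding protein METTL16, which process or bind the 3′ ends printed above, 13 were tested. In A549 cells 2 rose and 2 fell under complete smoke and 5 rose and 2 fell under filtered smoke, and in BEAS-2B cells 5 rose and 3 fell under each exposure. The block gave 6 that rose and 2 that fell under complete smoke and 7 and 3 under filtered smoke in A549 cells. Without complete smoke library 3 and clean air library 1, 9 rose and 3 fell in BEAS-2B cells under each exposure, and with sample numbers 1 and 2 only 4 rose and 2 fell under complete and 3 rose and 2 fell under filtered smoke. METTL16, which binds the MALAT1 triple helix, fell in all 4 comparisons, in A549 complete and filtered smoke (log2 fold change −0.998 ± 0.200 and −1.14 ± 0.20, adjusted p = 0.00804 and 0.00302 by edgeR) and in BEAS-2B complete and filtered smoke (−1.70 ± 0.24 and −1.79 ± 0.24, adjusted p = 0.00235 and 0.00245). RPP14, an RNase P subunit, fell in BEAS-2B cells (−2.10 ± 0.33 and −2.13 ± 0.33), and RPP25L, a paralogue of the RNase P subunit RPP25, rose in A549 cells (1.05 ± 0.24 and 1.24 ± 0.24). POP7, another RNase P subunit, rose in A549 filtered smoke (1.24 ± 0.40). With TMM scaling the list's median was 0.27 and 0.41 in A549 cells and 0.80 and 0.78 in BEAS-2B cells under complete and filtered smoke. Library size alone moved the median of all genes in BEAS-2B cells down by a similar amount, as given above. The list was not summarised on that scale.

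Nuclear speckle and exon junction proteins, found in the bodies where MALAT1 gathers, moved both ways among 15 tested. Under complete smoke 2 rose and 1 fell in A549 cells and 3 rose and 5 fell in BEAS-2B cells, and under filtered smoke 4 rose and 3 fell in A549 cells and 3 rose and 6 fell in BEAS-2B cells. In A549 cells the block gave 6 that rose and 3 that fell under complete smoke and 7 and 5 under filtered smoke. Without complete smoke library 3 and clean air library 1, 6 rose and 7 fell in BEAS-2B cells under each exposure, and with sample numbers 1 and 2 only 2 rose and 5 fell under complete and 2 rose and 4 fell under filtered smoke. SRRM2, a core protein of nuclear speckles, fell in A549 filtered smoke (−1.20 ± 0.30), in BEAS-2B complete smoke (−1.47 ± 0.46) and in BEAS-2B filtered smoke (−1.88 ± 0.47). THRAP3, a splicing-associated protein, fell in A549 cells (−0.85 ± 0.15 under complete and −0.98 ± 0.15 under filtered smoke), and BCLAF1, its relative, fell in BEAS-2B filtered smoke (−1.56 ± 0.40). PNN, a speckle and junction protein, rose in A549 complete smoke (0.47 ± 0.14), and MAGOH, an exon junction core subunit, rose in BEAS-2B complete smoke (1.37 ± 0.24). The list's median log2 fold change lay between −0.07 and −0.46 over the 4 comparisons.

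Other long noncoding RNAs moved in both directions. In A549 cells 3 of 15 rose and 1 fell under complete smoke, and 3 rose and 3 fell under filtered smoke. In BEAS-2B cells 4 of 14 rose and 3 fell under complete smoke, and 4 rose and 5 fell under filtered smoke. The block gave 5 that rose and 5 that fell under complete smoke and 5 and 8 under filtered smoke in A549 cells. With sample numbers 1 and 2 only, 2 rose and 6 fell in BEAS-2B cells under each exposure, and without complete smoke library 3 and clean air library 1, 4 rose under each while 6 fell under complete and 7 under filtered smoke. DANCR, a host of a small nucleolar RNA, rose in A549 cells (1.11 ± 0.22 and 1.17 ± 0.22), OIP5-AS1, also called cyrano, fell in A549 filtered smoke (−1.37 ± 0.36), and CRNDE rose in A549 complete smoke (0.64 ± 0.15). In BEAS-2B cells CYTOR rose (2.29 ± 0.37 under complete and 2.11 ± 0.37 under filtered smoke), LINC-PINT, a p53-induced RNA, rose under complete smoke (2.40 ± 0.42), and FTX fell under filtered smoke (−2.46 ± 0.80). The median of the list was −0.16 and −0.43 in A549 cells and 0.14 and −0.87 in BEAS-2B cells under complete and filtered smoke.

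Of 7 transcription factors reported to act on NEAT1, 2 rose and 3 fell in A549 cells under each exposure. In BEAS-2B cells 1 rose and 1 fell under complete smoke and 2 rose and 1 fell under filtered smoke, and without complete smoke library 3 and clean air library 1, 2 rose and 2 fell under each. HSF1, the heat shock factor, rose in all 4 comparisons, with log2 fold changes of 0.84 ± 0.25 and 0.96 ± 0.25 in A549 complete and filtered smoke and of 0.90 ± 0.23 and 1.17 ± 0.24 in BEAS-2B cells. On library size alone the BEAS-2B values were 0.19 and 0.48 and did not pass (adjusted p = 0.459 and 0.0796 by edgeR). ATF2, a stress-regulated factor, fell in all 4 (−0.88 ± 0.18 and −0.95 ± 0.18 in A549 cells, −1.08 ± 0.33 and −1.35 ± 0.33 in BEAS-2B cells), though with sample numbers 1 and 2 only no factor fell in BEAS-2B complete smoke. These are levels of the factors' own RNA, which were not set against NEAT1.

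The genes beside NEAT1 and MALAT1 on chromosome 11 did not share a direction. Of 15 neighbours tested in each line, 5 rose and 1 fell under complete smoke and 5 rose and 3 fell under filtered smoke in A549 cells, and 2 rose and 4 fell under complete smoke and 3 rose and 4 fell under filtered smoke in BEAS-2B cells. In A549 cells the block gave 7 that rose and 2 that fell under complete smoke and 7 and 4 under filtered smoke. In BEAS-2B cells 5 rose and 5 fell under complete and 5 rose and 2 fell under filtered smoke without complete smoke library 3 and clean air library 1, and with sample numbers 1 and 2 only 2 rose and 2 fell under complete and 3 rose and 1 fell under filtered smoke. FRMD8, the coding gene next to NEAT1 on its upstream side, fell in A549 filtered smoke (−0.72 ± 0.18, adjusted p = 0.0109 by edgeR) and in BEAS-2B complete and filtered smoke (−0.85 ± 0.20 and −0.57 ± 0.20). In BEAS-2B filtered smoke it did not pass without complete smoke library 3 and clean air library 1 (−0.45, adjusted p = 0.0525 by edgeR). Nor did it pass there with sample numbers 1 and 2 only (−0.64, adjusted p = 0.0728 by edgeR). SIPA1, a GTPase activator, and ZNRD2, a zinc ribbon protein, rose in all 4 comparisons, SIPA1 by 1.59, 1.73, 1.24 and 1.35 and ZNRD2 by 0.91, 1.13, 2.03 and 1.99 in A549 complete, A549 filtered, BEAS-2B complete and BEAS-2B filtered smoke. On library size alone the BEAS-2B values of SIPA1 were 0.52 and 0.66 and did not pass (adjusted p = 0.179 and 0.0932 by edgeR).

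**Figure D5:**
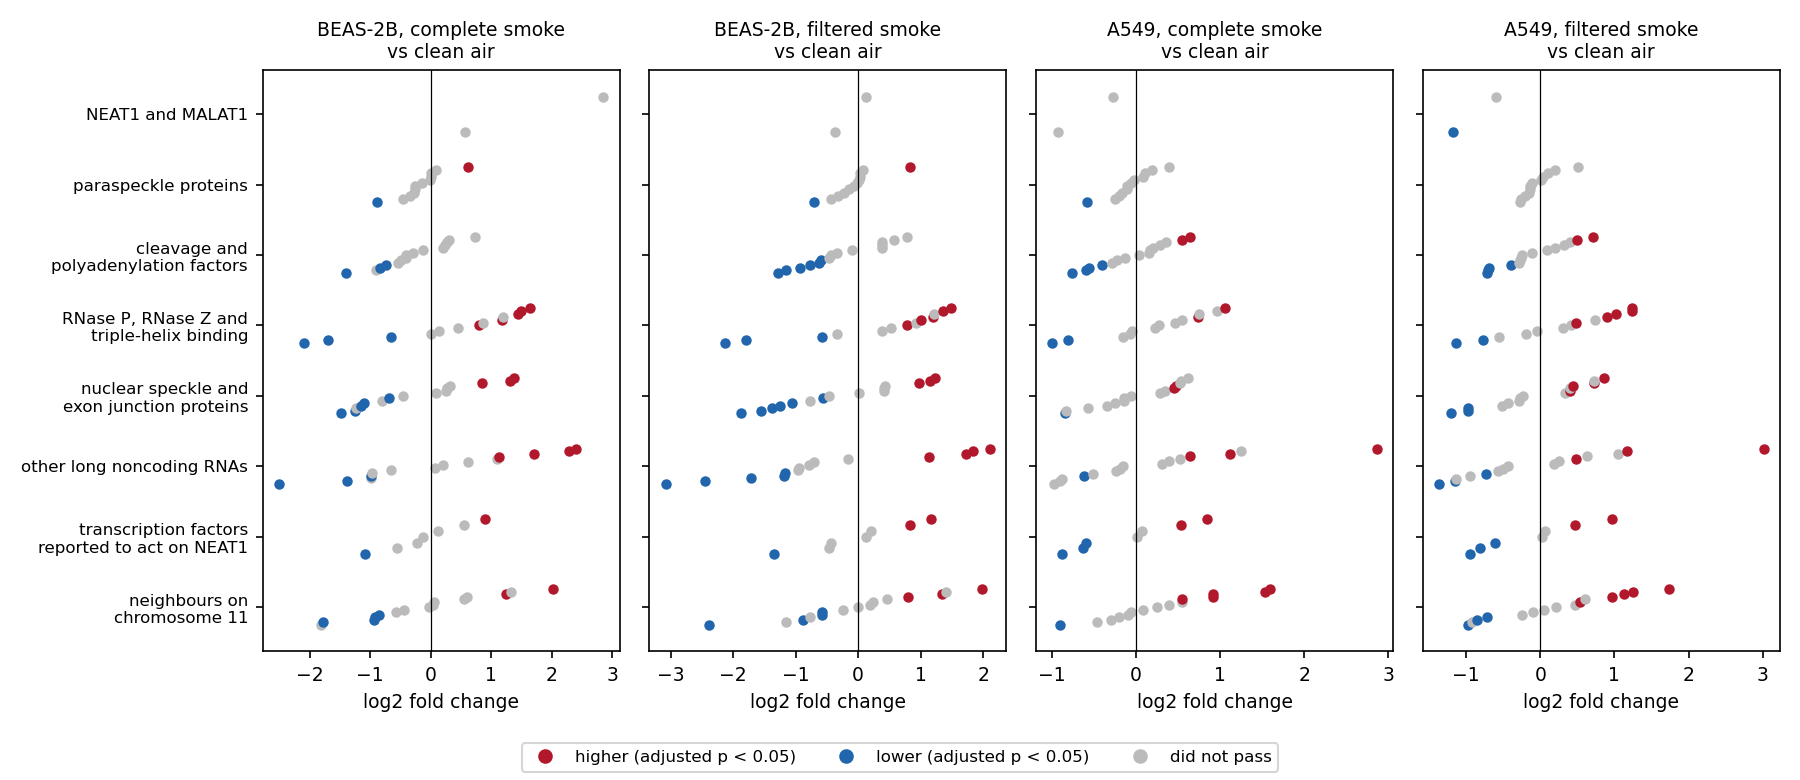
Log2 fold change against clean air (edgeR) of NEAT1 and MALAT1 and of each tested gene of the 7 lists, in BEAS-2B and A549 cells under complete and filtered smoke; red points are higher and blue points lower at an adjusted p under 0.05, and grey points did not pass. The top row holds both RNAs, and MALAT1 in A549 filtered smoke is the only coloured point there, while 11 to 12 of the 12 paraspeckle proteins are grey in A549 cells. All points are from the fits without the sample number as a block.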

How the data were processed

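The deposited gene counts came from STAR 2.7.10b and GRCh38, as the submitters' processing notes have it; the annotation is not given in the sources used here. Per the labels' protocols, RNA was isolated with TRIzol and sequenced after a TruSeq mRNA kit, which selects poly(A) tails. Each deposited file holds 3 count columns and 4 summary lines, and the summary lines were left out. The fourth column was used, because it held 11.7 to 17.1 times the counts of the opposite strand. Positions came from GENCODE v29, and sequences from its transcripts.

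CPM is a count per 1000000 gene counts. After filterByExpr and TMM scaling (factors 0.916 to 1.09 in A549 and 0.718 to 1.52 in BEAS-2B cells), edgeR 4.0.16 in R 4.3.3 tested genes by robust quasi-likelihood, within a line over 9 libraries and over all 18 for line differences and for the lines in clean air. Benjamini-Hochberg adjustment ran over all tested genes, with 0.05 as the threshold. SE came from the test statistic, and 95% intervals of fold changes from the SE by a normal approximation. Ratios were tested by exact permutation. The edgeR step was run on simulated counts with a fixed spread and no outlying library, so that run does not cover a case like the BEAS-2B data.

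Sample numbers come from the labels. Same-numbered A549 libraries deviated together in 9 of 9 pairs (correlation 0.220 to 0.798) and are taken as paired. In BEAS-2B cells 8 of 9 did (−0.134 to 0.666), which does not meet that rule. The A549 pairing was read from these same data. The main edgeR fits leave it out, and the fits with the sample number as a block use it. The labels do not say whether replicates are separate cultures, so a p-value here reflects only how far the samples scatter, which could be technical scatter. Intervals of counts cover counting error only.

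NEAT1, MALAT1 and the 7 gene lists were chosen with earlier results of these data known. Named from a list were at most 2 passing genes with the largest change at a mean of at least 5 CPM, besides TALAM1, SFPQ, NONO, PSPC1 and the neighbours; likeness used log2 CPM with a prior count of 2. A gene this rule would name is not reported here. Alternatives were DESeq2 size factors, upper-quartile scaling, library size alone, no filter, the Wald test of DESeq2 1.42.0, the sample number as a block, counts that ignore strand, each library left out, BEAS-2B clean air 1 and complete smoke 3 left out together and, added after seeing the data, sample numbers 1 and 2 only.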

Additional observations from a re-analysis of the deposited data

Results flagged for a closer look

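Reads from the strand opposite to MALAT1 were used in no comparison but that of TALAM1, whose counts were close to theirs. As a share of the stranded counts at MALAT1 they were above every clean air library of the same line in all 3 filtered smoke libraries: the lowest filtered smoke library had 0.446% in A549 cells and 0.120% in BEAS-2B cells, against at most 0.413% and 0.0827% in clean air. Under complete smoke the shares were 0.495, 0.671 and 0.382% in A549 libraries 1, 2 and 3 and 0.145, 0.805 and 0.0492% in BEAS-2B libraries. The share is divided by MALAT1 itself, and MALAT1 was low in most smoke libraries. The reads themselves numbered 8, 11 and 28 in A549 filtered smoke libraries and 20, 38 and 23 in A549 clean air libraries, and 3, 4 and 11 in BEAS-2B filtered smoke libraries and 0, 3 and 2 in BEAS-2B clean air libraries. At NEAT1, where the annotation used here has no gene on the opposite strand, the same share was 0.0839 to 0.400% over all libraries. Reads at MALAT1 that come from an antisense RNA were not told apart from stray ones. The difference in share at MALAT1 was not tested.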

How the results depend on the processing

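Of 384 values of the 26 results on NEAT1 and MALAT1 under another setting, 329 kept their direction and their side of the threshold. That count includes the ratio results, which could not cross the threshold, since no exact permutation p here can be under 0.1. DESeq2 gave no p for MALAT1 in the BEAS-2B comparisons, and a missing p was counted as not passed. NEAT1 in clean air, BEAS-2B against A549, passed under every setting run.

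With the sample number as a replicate block, MALAT1 passed in A549 complete smoke (log2 fold change −1.01) and NEAT1 in A549 filtered smoke (−0.60). MALAT1 turned to −1.34 in BEAS-2B filtered smoke, where the sample numbers did not meet the pairing rule used here. Its line difference under filtered smoke turned to −0.022. The block changed no other call of these RNAs. In BEAS-2B complete smoke against clean air it moved the genes that fell to 5350, against 3187 without it, and for line differences the genes that passed upward to 1827 for complete and 1406 for filtered smoke, against 100 and 55.

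With no low-count filter the calls stronger than before were MALAT1 in A549 complete smoke (−0.93), NEAT1 in A549 filtered smoke (−0.59), MALAT1 between lines in clean air (−1.92), and the line differences of MALAT1 for complete smoke against clean air (3.67), complete against filtered smoke (2.37) and filtered smoke against clean air (1.29). The cause was not tested. Upper-quartile scaling and counts that ignore strand ended the MALAT1 call in A549 filtered smoke (−1.09 and −1.08). Library size alone turned MALAT1 in BEAS-2B filtered smoke to −0.47 and the line difference of NEAT1 under filtered smoke to −0.28, and moved the median of all genes by over 0.1 in both lines, to −0.74 in BEAS-2B cells.

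With sample numbers 1 and 2 only, MALAT1 in A549 complete smoke (−1.29), NEAT1 in A549 filtered smoke (−0.68) and MALAT1 between lines in clean air (−1.99) passed. MALAT1 turned to −0.63 and −1.85 in BEAS-2B complete and filtered smoke and to −0.34 for its line difference under filtered smoke. NEAT1 turned to −0.62 in BEAS-2B complete smoke, −0.18 in BEAS-2B complete against filtered smoke, and −0.21 and −0.35 for its line differences in complete smoke against clean air and against filtered smoke. The log2 ratio turned to −0.11 for A549 complete against filtered smoke and to 0.21 for BEAS-2B complete smoke against clean air. Without BEAS-2B clean air 1 and complete smoke 3 together, MALAT1 turned to −0.90 in BEAS-2B complete smoke, −0.92 against filtered smoke and −1.11 for the line difference of complete against filtered smoke, and NEAT1 to −0.85, −0.42 and −0.72, and to −0.62 for its line difference under complete smoke.

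Leaving out 1 library at a time gave these ranges. MALAT1 ran from −1.40 to −0.73 in A549 complete smoke, −1.71 to −0.96 in A549 filtered smoke and −0.23 to 0.78 in A549 complete against filtered smoke. In BEAS-2B cells it ran from −0.77 to 3.43 for complete smoke, −1.98 to 0.60 for filtered smoke and −0.88 to 4.85 for complete against filtered smoke. Its line differences ran from 0.18 to 4.27 for complete smoke, −1.11 to 4.51 for complete against filtered smoke and −0.81 to 1.82 for filtered smoke. NEAT1 ran from −0.58 to −0.12 in A549 complete smoke, −0.80 to −0.48 in A549 filtered smoke, 0.0088 to 0.51 in A549 complete against filtered smoke, −0.79 to 0.98 in BEAS-2B complete smoke, −0.59 to −0.15 in BEAS-2B filtered smoke and −0.40 to 1.34 in BEAS-2B complete against filtered smoke, with line differences from −0.49 to 1.17 for complete smoke, 0.0037 to 0.47 for filtered smoke and −0.72 to 0.94 for complete against filtered smoke. The log2 ratio ran from −0.22 to 0.17 for A549 complete against filtered smoke, −1.60 to 0.21 for BEAS-2B complete smoke, −2.09 to −0.20 for BEAS-2B complete against filtered smoke and −0.22 to 1.34 for BEAS-2B filtered smoke. Of 2640 values of 160 counts over lists and all genes, 2090 stayed within 1.5 times and 550 moved.

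With 3 libraries a group, and 1 BEAS-2B library far from the others, the intervals of the BEAS-2B values of MALAT1 allow changes in either direction. Counting error is small beside this spread.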
